A study of Mus musculus with 24 samples.

Results

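The genes described are 9 of the 37310 genes of the expression tables: Gpd1, Pck1, Gpam, Agpat2, Lpin1, Lpin2, Lpin3, Dgat1 and Dgat2. They were chosen by name, as enzymes that supply glycerol 3-phosphate and build it into triglyceride. Earlier results of these data were known when the choice was made. The cultures began as stromal vascular cells, a mixture in which adipocyte precursors are found, of C57BL/6 mice aged 6 weeks. They came from the inguinal white depot (WAT) or the interscapular brown depot (BAT). All groups were induced to differentiate with insulin, dexamethasone and 3-isobutyl-methylxanthine until day 4, and then kept in insulin and T3, a thyroid hormone, until day 8. The medium held EGCG (epigallocatechin gallate, the main green tea catechin) or its solvent DMSO (control). The labels give neither the EGCG dose nor when exposure began relative to induction. RNA was sequenced on day 4 and day 8, which gave 8 groups of 3 libraries and 24 libraries in all.

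Adipocytes store fatty acids as triglyceride on a backbone of glycerol 3-phosphate. White adipocytes have little capacity to reuse the glycerol that lipolysis releases. Glycerol 3-phosphate dehydrogenase (Gpd1) makes the backbone from dihydroxyacetone phosphate. That precursor comes from glycolysis, or from pyruvate and lactate through phosphoenolpyruvate carboxykinase (Pck1), a route called glyceroneogenesis. Acyl groups are then added in turn by a glycerol 3-phosphate acyltransferase such as the mitochondrial Gpam and by an acylglycerol phosphate acyltransferase such as Agpat2, a lipin (Lpin1, Lpin2 or Lpin3) removes the phosphate to leave diacylglycerol, and Dgat1 or Dgat2 adds the last acyl chain.

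Promoter windows of 300 bases, from 250 bases before to 50 bases after the annotated start, were matched for 6 of the 9 genes in RefSeq (assembly GRCm38.p6). The windows of Agpat2, the 3 lipins and Pck1 are shown 5′ to 3′, because the lipins are paralogs whose levels moved in different directions, Agpat2 fell steeply with EGCG, and Pck1 was near its detection floor in WAT but not in BAT controls. For Lpin2 and Lpin3, which have more than 1 window, the most upstream is shown. Both strands were searched, and capitals mark what was found. The letters TTACGTCA and TGACGTCA are forms of the cAMP response element, and the shorter TGACG is the core of that element and lies inside both. CACGTG is an E-box, GGGCGG is a GC box, and the CCAAT and TATAAA boxes were searched too. So were the direct repeat bound by PPAR receptors and the glucocorticoid receptor palindrome, neither of which was found in the windows shown.
Pck1, chr2:173152823-173153122, plus strand: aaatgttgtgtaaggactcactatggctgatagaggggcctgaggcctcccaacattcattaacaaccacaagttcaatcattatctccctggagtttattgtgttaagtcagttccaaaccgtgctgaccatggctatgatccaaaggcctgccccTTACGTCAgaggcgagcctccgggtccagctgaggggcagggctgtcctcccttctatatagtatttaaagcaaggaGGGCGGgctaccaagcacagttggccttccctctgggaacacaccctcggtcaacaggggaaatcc
Agpat2, chr2:26604368-26604667, minus strand: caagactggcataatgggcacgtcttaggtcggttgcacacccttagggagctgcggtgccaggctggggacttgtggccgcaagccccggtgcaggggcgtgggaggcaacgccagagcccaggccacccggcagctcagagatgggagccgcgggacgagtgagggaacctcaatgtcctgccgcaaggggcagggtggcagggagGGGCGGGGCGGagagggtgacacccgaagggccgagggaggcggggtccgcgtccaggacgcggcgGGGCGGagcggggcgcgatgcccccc
Lpin1, chr12:16610917-16611216, minus strand: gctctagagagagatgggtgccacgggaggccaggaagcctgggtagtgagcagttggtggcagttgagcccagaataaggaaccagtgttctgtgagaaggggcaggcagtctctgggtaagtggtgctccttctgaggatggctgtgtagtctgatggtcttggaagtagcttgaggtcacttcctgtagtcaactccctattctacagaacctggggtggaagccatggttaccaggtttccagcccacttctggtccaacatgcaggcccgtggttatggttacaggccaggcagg
Lpin2, chr17:71183282-71183581, plus strand: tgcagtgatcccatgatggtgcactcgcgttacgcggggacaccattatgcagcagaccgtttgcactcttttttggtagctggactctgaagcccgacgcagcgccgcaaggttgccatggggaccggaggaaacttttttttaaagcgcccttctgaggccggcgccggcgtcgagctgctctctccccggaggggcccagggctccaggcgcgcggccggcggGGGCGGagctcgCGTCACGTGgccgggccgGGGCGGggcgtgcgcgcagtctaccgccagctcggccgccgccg
Lpin3, chr2:160880420-160880719, plus strand: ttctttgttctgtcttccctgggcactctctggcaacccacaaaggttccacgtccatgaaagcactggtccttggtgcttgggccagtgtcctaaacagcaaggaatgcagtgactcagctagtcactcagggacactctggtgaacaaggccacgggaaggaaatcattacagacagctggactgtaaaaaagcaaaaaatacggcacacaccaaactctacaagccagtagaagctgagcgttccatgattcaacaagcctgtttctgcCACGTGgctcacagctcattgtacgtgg

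The Pck1 window held TTACGTCA from position -93 relative to the start, and 0.499% of 32851 promoter windows of the same length held these letters. It also held GGGCGG at -16, as did 35.7% of all windows at some position. The Agpat2 window held GGGCGG at -42, -37 and 25, with the first 2 overlapping by a base. The Lpin1 window held none of the letters searched. In the Lpin2 window TGACG on the minus strand at -12 overlapped CACGTG at -9, between copies of GGGCGG at -24 and 7. The Lpin3 window held CACGTG at 23, and 7.15% of all windows held an E-box. The shares of all windows were 20.8% for the core TGACG, 1.79% for TGACGTCA, 37.4% for CCAAT, 13.6% for TATAAA, 0.0396% for the PPAR repeat and 0.00913% for the glucocorticoid receptor palindrome. These matches describe the letters of the windows alone, and binding was not measured here.

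Expression is given as FPKM, read counts scaled to gene length and library size. Depth was 39452696 to 52893848 gene-assigned reads per library in replicates 1 and 2, and 16392420 to 41675643 in replicate 3. Replicate 3 came in a table of its own, so tests were made in limma on log2(FPKM + 1) of replicates 1 and 2 (n = 2 per group, 16 libraries), and replicate 3 was used for the direction of change. The labels do not say whether the replicates were separate isolations of cells, so p-values measure the spread between these libraries, which may be technical. In WAT day 8 EGCG replicate 3, 61.0% of the reads fell on 5 genes that each took under 0.001% of reads in every other library. Its values for all other genes were lowered accordingly, and where it is given here they were multiplied by 2.56, the factor that leaving out these 5 genes gives, unless called as deposited. The BAT libraries carried the brown depot marker Zic1, at 10.6 FPKM in day 4 controls against 0.0454 in WAT, and the WAT libraries the white depot marker Hoxc10, at 7.70 FPKM against 0.0291 in BAT (means of replicates 1 and 2). The whole lists of 4 markers, named below, separated the depots less sharply. In day 4 controls the brown list summed to 49.4 to 58.1 FPKM in BAT and 27.9 to 34.5 in WAT. The white list summed to 20.4 to 24.2 FPKM in WAT and 4.82 to 5.91 in BAT. Ucp1, the thermogenic uncoupling protein of brown fat, averaged 6.56 FPKM in BAT day 8 controls and was listed at 0 in all 3 BAT day 8 EGCG libraries.

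With EGCG, 6 of the 9 genes (Gpd1, Gpam, Agpat2, Lpin1, Dgat1 and Dgat2) fell in both depots on both days, and among these 6 the fall was deepest for Gpd1, Dgat2 and Agpat2. Lpin2 rose in 3 of the 4 comparisons. Lpin3 rose in both depots on day 4 and fell in BAT on day 8. Its WAT day 8 value (0.35) was called higher, but the call was lost with median-ratio scaling (0.16, adjusted p = 0.185, limma) and the value was -0.16 in a fit of all 24 libraries as deposited, with a term for the table (0.21 with WAT day 8 EGCG replicate 3 rescaled). Pck1 fell in BAT on both days, where it was expressed at a low level, and was close to its detection floor in WAT. In WAT on day 4, 8 of the 9 genes were called at an adjusted p under 0.05 (limma, Benjamini-Hochberg), 2 higher and 6 lower, where 53.7% of the 14095 tested genes were called, 34.4% higher and 19.3% lower. In WAT on day 8 all 9 were called, 2 higher and 7 lower, against 63.6% of tested genes, 44.7% higher and 18.9% lower, and 6 were called in the fit of all 24 libraries as deposited, where Lpin2, Lpin3 and Pck1 were not. In BAT on day 4, 8 were called, 1 higher and 7 lower, against 48.5% of tested genes, 27.9% higher and 20.6% lower. In BAT on day 8 all 9 were called, 1 higher and 8 lower, against 72.6% of tested genes, 46.5% higher and 26.1% lower. The median log2 change of the 9 genes was -1.50 and -1.96 in WAT on days 4 and 8 and -1.49 and -2.92 in BAT, beside medians of 0.09, 0.17, 0.03 and 0.17 over all tested genes. All 9 genes passed the filter on low values (FPKM of at least 1 in at least 2 of the 16 libraries), which Pck1 did through its BAT libraries.

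The markers of mature adipocytes fell with EGCG, as did Gpd1, Gpam, Agpat2, Lpin1, Dgat1 and Dgat2. All 10 genes of the adipocyte list (Adipoq, Plin1, Cidec, Fabp4, Pparg, Cebpa, Lep, Plin4, Cfd and Retn) were lower with EGCG in each of the 4 comparisons, with median log2 changes of -2.29 and -5.54 in WAT on days 4 and 8 and -2.18 and -4.82 in BAT. Their summed FPKM ranged from 5142 to 6042 in WAT day 8 controls against 153 to 169.6 with EGCG, and from 10073 to 10366 in BAT day 8 controls against 335 to 353. On day 4 the sums were 2146 to 2829 against 409 to 446 in WAT and 5219 to 6785 against 1245 to 1284 in BAT. Fewer adipocytes and less RNA per adipocyte cannot be told apart in these bulk libraries, and the part of cell composition in the changes of the 9 genes was not tested.

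Markers of other cell types that the stromal fraction can hold were also called, in both directions. Beside the counts below, 34.4% of all tested genes were higher with EGCG and 19.3% lower in WAT on day 4. In WAT on day 8 the shares were 44.7% and 18.9%. In BAT they were 27.9% and 20.6% on day 4, and 46.5% and 26.1% on day 8. Of the 8 macrophage markers tested (9 listed), 7 were higher with EGCG in WAT on day 4 and 5 in BAT, while 8 were lower in WAT on day 8 and 7 in BAT. Their summed FPKM was 76.5 to 82.7 in WAT day 4 controls against 184 to 202 with EGCG, and 121 to 146 against 57.6 to 67.4 on day 8. In BAT the macrophage sums were 177 to 199 against 381 to 459 on day 4 and 122 to 134 against 58.8 to 61.3 on day 8. Of 7 endothelial markers tested, 6 were higher in WAT on day 4, 6 in BAT on day 4 and 6 (with 1 lower) in BAT on day 8, and in WAT on day 8 there were 4 higher and 1 lower. Of 7 progenitor markers tested, 2 were higher and 3 lower in WAT on day 4, 1 higher and 5 lower in WAT on day 8, 2 higher and 1 lower in BAT on day 4, and 1 higher and 4 lower in BAT on day 8. Of 4 skeletal muscle markers tested, 4 were higher in WAT on day 4, 2 in WAT on day 8 and none in BAT, where 1 was lower on day 8. Endothelial sums were 17.7 to 19.7 FPKM in WAT day 4 controls against 37.2 to 41.1 with EGCG and 24.6 to 26.9 against 32.0 to 34.3 on day 8, and in BAT 11.5 to 14.1 against 35.4 to 40.5 and 17.9 to 18.4 against 34.0 to 36.0. Progenitor sums were 417 to 449 against 595 to 637 and 1339 to 1452 against 889.9 to 981 in WAT, and 451 to 537 against 636 to 682 and 614 to 657 against 621 to 626 in BAT. A sum follows the most abundant genes of its list. In WAT on day 4 Ly6a averaged 101 FPKM in controls and 309 with EGCG, while the list's median log2 change was -0.02. In BAT on day 8 Pdgfrb averaged 62.0 against 219 FPKM and Ly6a 289 against 141. Muscle sums were 68.4 to 73.8 against 112 to 115 and 33.0 to 39.9 against 42.0 to 48.9 in WAT, and 17.0 to 25.1 against 20.0 to 29.3 and 47.2 to 56.4 against 37.4 to 50.9 in BAT. No gene of these lists was at 0 in all 3 libraries of a group, and the part of these cell types in the changes described here was not tested.

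**Figure D1:**
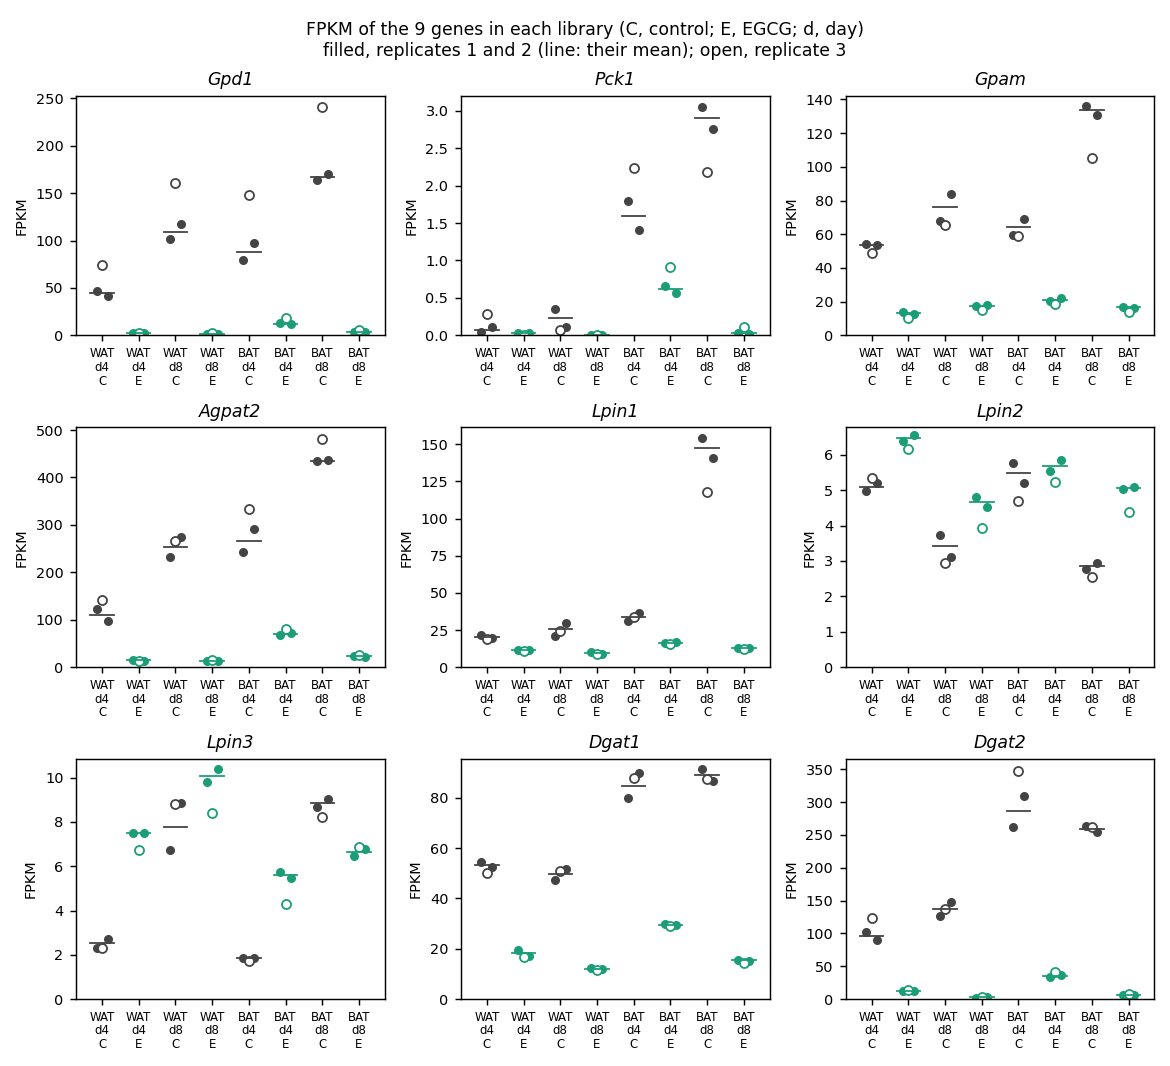
FPKM (vertical axes, linear, from 0) of the 9 genes in each of the 24 libraries, by depot, day (d4, d8) and treatment (C, control in grey; E, EGCG in green). Filled points are replicates 1 and 2 with a line at their mean, and open points are replicate 3, rescaled in WAT day 8 EGCG; for Gpd1, Gpam, Agpat2, Lpin1, Dgat1 and Dgat2 the EGCG points lie below the control points in every depot and day.

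The enzymes that supply glycerol 3-phosphate come first. Gpd1 (ENSMUSG00000023019, chromosome 15 from 99547946 to 99555436 on the plus strand, mm9) reduces dihydroxyacetone phosphate to glycerol 3-phosphate. In WAT it read 47.1, 41.8 and 74.2 FPKM in the 3 day 4 control libraries and 2.51, 2.23 and 2.79 FPKM with EGCG. On day 8 the WAT controls read 102, 117 and 161 FPKM and the EGCG libraries 1.20, 1.46 and 1.96 FPKM, the last having been deposited as 0.763. The groups were far from overlapping on either day, and replicate 3 was the highest control library each time. The log2 change was -3.75 ± 0.0983 (SE) on day 4 (adjusted p = 4.11e-10) and -5.57 ± 0.0983 on day 8 (adjusted p = 3.17e-12, limma), which left 7.42% and 2.11% of the control level on the FPKM + 1 scale.

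In BAT, Gpd1 read 79.4, 97.4 and 148 FPKM in day 4 controls against 12.5, 12.3 and 18.5 with EGCG. On day 8 it read 164, 170.3 and 241 FPKM in controls against 3.82, 3.94 and 5.73. Again every EGCG library was below every control library. On the FPKM + 1 scale, changes with EGCG in BAT were -2.73 ± 0.0983 on day 4 (adjusted p = 5.49e-09) and -5.11 ± 0.0983 on day 8 (adjusted p = 5.07e-12, limma). Of the exonic bases of Gpd1, 384 overlap the antisense gene Gm16537, and whether counting used the strand is not given in the sources used here.

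Pck1 (ENSMUSG00000027513, chromosome 2 from 172978549 to 172984774, plus strand), whose promoter window is printed above, makes phosphoenolpyruvate from oxaloacetate. By the mean of replicates 1 and 2 it was the lowest of the 9 genes in each group but BAT day 8 controls, where Lpin2 was lower (2.85 against 2.90 FPKM), and its values rest on few reads. In BAT it read 1.79, 1.41 and 2.23 FPKM in day 4 controls (196, 173 and 102 reads) and 0.660, 0.572 and 0.909 FPKM with EGCG (79, 77 and 45 reads). By day 8 the BAT controls read 3.05, 2.75 and 2.18 FPKM (387, 296 and 105 reads), and the EGCG libraries 0.0313, 0.0208 and 0.106 FPKM (4, 3 and 5 reads). The groups did not overlap on either day, and on day 8 the EGCG libraries were at or just above the floor of 3 reads. The log2 changes on the FPKM + 1 scale were -0.68 ± 0.116 (adjusted p = 0.000449) and -1.93 ± 0.116 (adjusted p = 2.61e-08, limma). This scale understates the change of a gene so low, and the ratio of summed reads of replicates 1 and 2, scaled to depth, was 2.59 (95% interval 2.14 to 3.14) on day 4 and 113 (54.6 to 283) on day 8, intervals that cover counting error only.

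In WAT, Pck1 was at 6, 13 and 13 reads in day 4 controls and 4, 4 and 0 reads with EGCG, a difference that did not pass the test (log2 change -0.06 ± 0.116, adjusted p = 0.687, limma). On day 8 the WAT controls held 47, 12 and 3 reads and the EGCG libraries 0, 0 and 0. The control libraries differed widely among themselves, and 1 of them was at the floor. With EGCG replicates 1 and 2 each set to the floor of 3 reads, Pck1 was at least 9.36-fold lower by the mean of these replicates. The limit leaves out replicate 3, whose control library was itself at the floor. This limit rested on control replicate 1, the library with 47 reads: it was 4.50-fold without that library and 14.2-fold without control replicate 2. The limma call there was close to its threshold (log2 change -0.29 ± 0.116, adjusted p = 0.0457) and was lost when control replicate 1 was left out (-0.15, adjusted p = 0.326). It was also lost on leaving out either EGCG library (adjusted p = 0.120 and 0.119).

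Genes around this step differed in their changes. Pck2, which encodes the mitochondrial form of the enzyme, was far more abundant than Pck1 per length, at a mean of 30.9 FPKM in WAT day 8 controls and 29.3 FPKM in BAT day 8 controls. It rose with EGCG in WAT (log2 change 0.34 on day 4 and 0.18 on day 8), was at 0.14 (adjusted p = 0.132, limma) in BAT on day 4, and fell in BAT on day 8 (-1.10). Pcx, pyruvate carboxylase, which makes the oxaloacetate that phosphoenolpyruvate carboxykinase uses, fell in WAT (-1.30 and -4.21 on days 4 and 8) and in BAT (-1.84 and -4.27). Gpd1l, a relative of Gpd1, was at -0.59 and -0.35 in WAT and at -0.56 and -0.47 in BAT, and so fell in all 4 comparisons. Gpd2, the mitochondrial dehydrogenase that oxidises glycerol 3-phosphate, fell on day 8 in both depots (-0.82 in WAT and -2.43 in BAT) and did not pass the test on day 4. Gk, glycerol kinase, fell in BAT (-0.54 and -0.36) and did not pass the test in WAT (0.00 and 0.07). Aqp7, a glycerol channel, fell in WAT (-0.77 and -2.25) and in BAT (-1.34 and -3.31). Unless a p is given, these changes had adjusted p-values under 0.05 in limma where they are said to have risen or fallen.

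The acyltransferases follow. Gpam (ENSMUSG00000024978, chromosome 19 from 55142142 to 55201824, minus strand) read 54.0, 53.8 and 48.7 FPKM in WAT day 4 controls and 13.9, 12.6 and 10.5 FPKM with EGCG. By day 8 the WAT controls read 68.0, 83.8 and 65.7 FPKM and the EGCG libraries 17.4, 18.0 and 15.0 (5.84 as deposited). The groups did not overlap, and the EGCG libraries sat close together. The log2 changes were -1.95 ± 0.0922 (adjusted p = 1.76e-08) and -2.03 ± 0.0922 (adjusted p = 7.38e-09, limma).

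In BAT, Gpam read 59.7, 69.0 and 58.8 FPKM in day 4 controls against 20.3, 22.2 and 18.6 with EGCG. The day 8 controls had reached 136, 131 and 105 FPKM while the EGCG libraries read 17.1, 16.5 and 13.8. Control and EGCG libraries were separate on both days, with a wider gap on day 8. In log2 units Gpam changed by -1.55 ± 0.0922 (adjusted p = 1.19e-07) and -2.92 ± 0.0922 (adjusted p = 1.39e-10, limma).

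Agpat2 (ENSMUSG00000026922, chromosome 2 from 26448577 to 26459937, minus strand) makes phosphatidic acid, and its loss in people causes a generalised lipodystrophy. In WAT it read 122, 97.8 and 141 FPKM in day 4 controls against 14.9, 13.3 and 13.5 with EGCG. On day 8 the WAT controls read 233, 275 and 265 FPKM against 12.5, 13.1 and 15.5 (6.04 as deposited). Controls were higher on day 8 than on day 4 while the EGCG libraries stayed in 1 narrow range. WAT log2 changes of Agpat2 were -2.87 ± 0.112 (adjusted p = 4.11e-09) and -4.21 ± 0.112 (adjusted p = 9.09e-11, limma).

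In BAT, Agpat2 read 243, 291 and 334 FPKM in day 4 controls against 66.9, 71.7 and 80.4 with EGCG. On day 8 it read 435, 436 and 482 FPKM against 23.8, 22.5 and 26.6. Every EGCG library was below every control, and the EGCG libraries were lower on day 8 than on day 4. In log2 units Agpat2 changed by -1.92 ± 0.112 (adjusted p = 1.05e-07) and -4.18 ± 0.112 (adjusted p = 4.29e-11, limma). Agpat2 shares 64 exonic bases with Egfl7 on the opposite strand.

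The lipins moved apart from each other. Lpin1 (ENSMUSG00000020593, chromosome 12 from 16542475 to 16596576, minus strand), the main lipin of fat, read 21.8, 19.4 and 19.1 FPKM in WAT day 4 controls against 11.5, 11.8 and 10.9 with EGCG. On day 8 it read 21.1, 29.7 and 24.6 FPKM against 10.2, 8.95 and 8.94 (3.48 as deposited). The groups did not overlap, and the controls of day 8 were the more variable. WAT log2 changes of Lpin1 were -0.77 ± 0.128 (adjusted p = 0.000350) and -1.30 ± 0.128 (adjusted p = 3.38e-06, limma).

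In BAT, Lpin1 read 30.9, 36.5 and 34.0 FPKM in day 4 controls against 16.1, 16.7 and 15.3 with EGCG. By day 8 the controls reached 154, 141 and 118 FPKM while the EGCG libraries read 12.7, 12.8 and 11.9. No other group came near the BAT day 8 controls for this gene. In log2 units Lpin1 changed by -0.99 ± 0.128 (adjusted p = 5.43e-05) and -3.43 ± 0.128 (adjusted p = 5.10e-10, limma).

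Lpin2 (ENSMUSG00000024052, chromosome 17 from 71531900 to 71599157, plus strand) was a low gene that was higher with EGCG in 3 comparisons. In WAT it read 4.98, 5.21 and 5.34 FPKM in day 4 controls against 6.40, 6.57 and 6.15 with EGCG, and 3.72, 3.11 and 2.93 FPKM against 4.81, 4.53 and 3.94 (1.54 as deposited) on day 8. In BAT it read 5.76, 5.21 and 4.69 FPKM against 5.54, 5.85 and 5.22 on day 4, and 2.76, 2.94 and 2.54 FPKM against 5.03, 5.10 and 4.38 on day 8. The groups overlapped in BAT on day 4 and were separate in the other 3 comparisons. The log2 changes of Lpin2 were 0.30 ± 0.0736 (adjusted p = 0.00516) and 0.36 ± 0.0736 (adjusted p = 0.000992) in WAT and 0.05 ± 0.0736 (adjusted p = 0.638) and 0.66 ± 0.0736 (adjusted p = 6.21e-06) in BAT, in limma. The median of all tested genes was itself 0.17 higher with EGCG on day 8 in each depot, and after median-ratio scaling, which brings it to 0.00 and 0.01, Lpin2 was higher by 0.19 and 0.20 in WAT and by 0.49 in BAT on day 8. The WAT day 4 call was lost with quantile normalization (0.18, adjusted p = 0.0553, limma).

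Lpin3 (ENSMUSG00000027412, chromosome 2 from 160706406 to 160731738, plus strand) was higher with EGCG on day 4. In WAT it read 2.30, 2.73 and 2.29 FPKM in day 4 controls against 7.50, 7.49 and 6.73, and in BAT 1.86, 1.85 and 1.73 FPKM against 5.76, 5.48 and 4.30. These groups were separate, with log2 changes of 1.28 ± 0.0972 in WAT (adjusted p = 8.05e-07) and 1.22 ± 0.0972 in BAT (adjusted p = 1.11e-06, limma). On day 8 the WAT controls read 6.72, 8.84 and 8.80 FPKM and the EGCG libraries 9.79, 10.4 and 8.42 (3.28 as deposited), and the groups overlapped. The call there (0.35 ± 0.0972, adjusted p = 0.00766, limma) was lost without control replicate 1 (0.18, adjusted p = 0.0797) or EGCG replicate 2 (0.31, adjusted p = 0.0539), with median-ratio scaling (0.16, adjusted p = 0.185) and with quantile normalization (0.22, adjusted p = 0.0892). Replicate 3 moved the other way, by -0.06. In BAT on day 8 the controls read 8.66, 9.04 and 8.22 FPKM and the EGCG libraries 6.47, 6.79 and 6.86, so that EGCG was lower in every library (log2 change -0.37 ± 0.0972, adjusted p = 0.00466, limma).

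The final acylation is shared by a pair of unrelated enzymes. Dgat1 (ENSMUSG00000022555, chromosome 15 from 76332445 to 76342381, minus strand) read 54.3, 52.6 and 50.1 FPKM in WAT day 4 controls against 19.3, 17.1 and 16.7 with EGCG. On day 8 it read 47.3, 51.7 and 50.7 FPKM against 12.2, 11.8 and 11.5 (4.50 as deposited). The control ranges of the 2 days overlapped. In BAT, Dgat1 read 79.9, 89.7 and 87.9 FPKM against 29.7, 29.4 and 29.1 on day 4, and 91.3, 86.7 and 87.6 FPKM against 15.5, 15.3 and 14.5 on day 8. Control and EGCG libraries were separate in all 4 comparisons. The log2 changes were -1.50 and -1.96 in WAT and -1.49 and -2.46 in BAT (SE 0.0666 for each), with adjusted p-values of 1.04e-08, 6.47e-10, 1.54e-08 and 4.62e-11 in limma.

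Dgat2 (ENSMUSG00000030747, chromosome 7 from 106302173 to 106331223, minus strand), which acts on newly made fatty acids at lipid droplets, read 102, 89.4 and 124 FPKM in WAT day 4 controls against 12.6, 12.7 and 13.0 with EGCG. On day 8 it read 126, 148 and 137 FPKM against 2.31, 2.62 and 2.57. The EGCG libraries were thus lower on day 8 than on day 4 in WAT. In BAT it read 262, 309.6 and 348 FPKM against 33.6, 35.9 and 40.7 on day 4, and 263, 254 and 262 FPKM against 6.17, 6.52 and 7.21 on day 8. Every EGCG library was below every control. The log2 changes were -2.82 and -5.32 in WAT and -3.00 and -5.14 in BAT (SE 0.0933 for each), with adjusted p-values of 1.24e-09, 3.17e-12, 2.53e-09 and 3.44e-12 in limma.

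**Figure D2:**
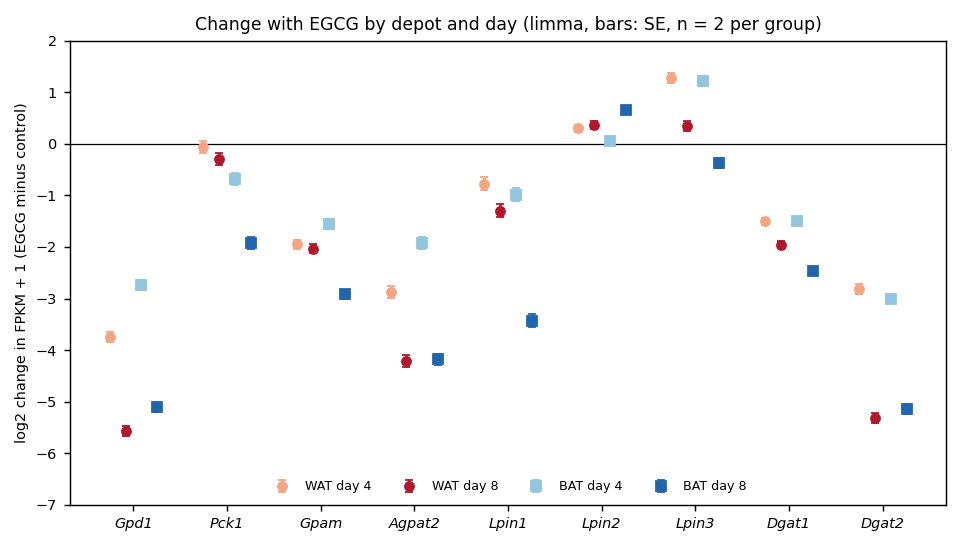
Log2 change in FPKM + 1 (EGCG minus control, vertical axis) of each gene in WAT (circles) and BAT (squares) on day 4 (pale) and day 8 (dark), from limma on replicates 1 and 2, with bars of 1 SE. The points of Gpd1, Agpat2 and Dgat2 lie lowest on day 8, between -4.18 and -5.57, and those of Lpin2 and of Lpin3 on day 4 lie above 0 (Lpin2 in BAT on day 4, at 0.05, did not pass the test).

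Because members of a family changed unequally, the share of the family's summed FPKM taken by 1 member was compared over all 24 libraries, with treatment labels permuted within depot and day (exact permutation test, two-sided, 8 tests in the family with those of the days). A share compares genes within a library and does not depend on the scaling of that library. The shares were compared after unequal changes had been seen in these same libraries. The tests with EGCG therefore restate that inequality and are no separate support for it. The Agpat2 share of Agpat1 to Agpat5 was 65.8% ± 3.34 (SD, n = 3) in WAT day 4 controls and 16.5% ± 0.804 with EGCG, and 78.2% ± 0.848 against 14.2% ± 0.855 on day 8. In BAT it was 79.3% ± 2.52 against 46.2% ± 2.39 on day 4 and 82.7% ± 0.307 against 20.5% ± 0.692 on day 8. The mean difference was -52.15 points. The Dgat2 share of Dgat1 and Dgat2 was 66.5% ± 4.29 against 42.0% ± 2.27 and 73.3% ± 0.758 against 17.4% ± 1.32 in WAT, and 78.0% ± 1.66 against 55.5% ± 2.61 and 74.6% ± 0.370 against 30.5% ± 2.48 in BAT, with a mean difference of -36.75 points. Dgat2 was therefore the more abundant of the pair in every control library and the less abundant in all EGCG libraries but those of BAT on day 4.

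The Lpin1 share of the 3 lipins was 72.5% ± 2.16 against 45.6% ± 0.369 on day 4 and 68.6% ± 2.33 against 40.2% ± 2.41 on day 8 in WAT. In BAT it was 82.7% ± 2.15 against 60.0% ± 1.52 and 92.3% ± 0.725 against 52.0% ± 0.510, and the mean difference over depots and days was -29.60 points. The Gpam share of Gpam, Gpat2, Gpat3 and Gpat4 was 49.7% ± 2.62 against 27.4% ± 3.32 and 69.7% ± 3.72 against 37.1% ± 3.02 in WAT, and 45.7% ± 3.13 against 34.0% ± 2.65 and 72.4% ± 2.88 against 33.9% ± 3.16 in BAT, a mean difference of -26.23 points. All 4 shares fell with EGCG in 4 of 4 depots and days, each at p = 1.25e-05 in the exact permutation test, the smallest p that these permutations can give (adjusted p = 2.50e-05 over the 8 tests).

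**Figure D3:**
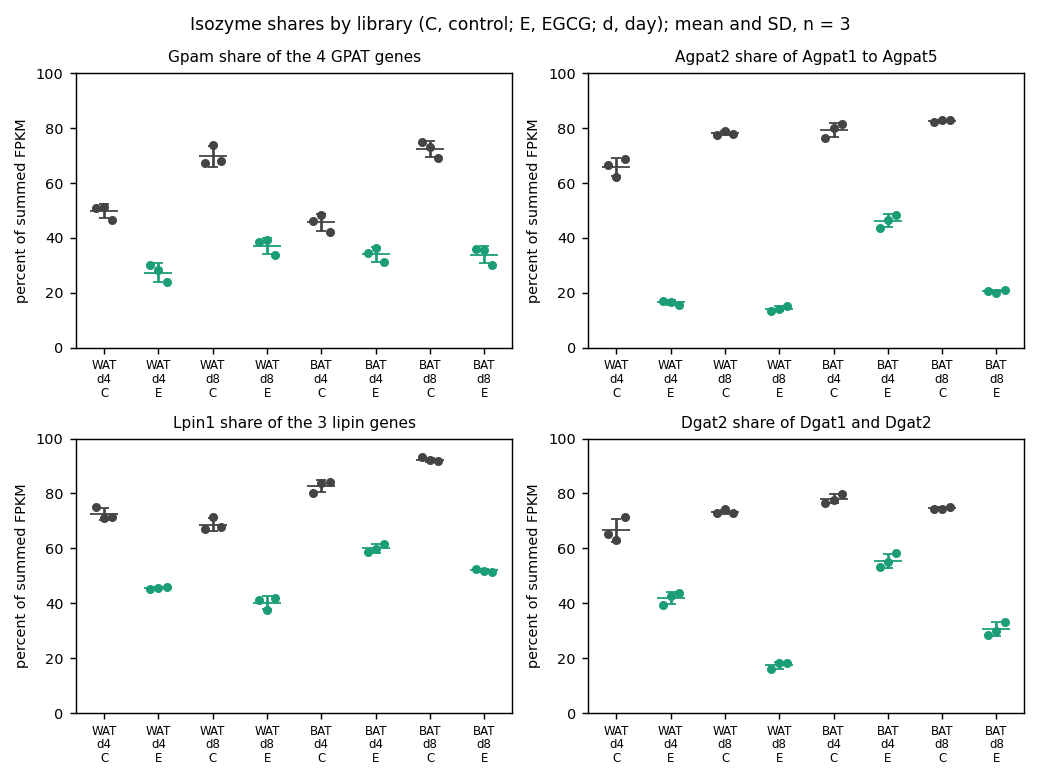
Share of a family's summed FPKM (percent, vertical axes from 0 to 100) taken by Gpam, Agpat2, Lpin1 and Dgat2 in each library, by depot, day (d4, d8) and treatment (C, control in grey; E, EGCG in green), with the mean and SD of 3 libraries. Each EGCG group lies below its control group, for Agpat2 in WAT on day 8 at 14.2% against 78.2%.

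The unequal change can be followed in the other family members. Gpat3, an acyltransferase of the endoplasmic reticulum, fell with EGCG in WAT (-3.02 and -2.28 on days 4 and 8) and in BAT (-2.45 and -1.71). Its relative Gpat4 was at -0.13 and 0.21 in WAT and at -0.25 and -0.49 in BAT. Gpat2 did not pass the filter and averaged at most 0.285 FPKM in any group. Of the acylglycerol phosphate acyltransferases, Agpat4 rose in all 4 comparisons (0.89, 0.56, 0.69 and 0.99 in WAT day 4, WAT day 8, BAT day 4 and BAT day 8) and Agpat3 fell in all 4 (-0.30, -0.55, -0.27 and -1.15). Agpat1 was at 0.11 (adjusted p = 0.160), 0.55, 0.19 and 0.51, and Agpat5 at 0.46, 0.05 (adjusted p = 0.422), 0.20 and -0.27 in the same order, and the values without a p had an adjusted p under 0.05 in limma.

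Of 26 other genes of the pathway that were listed, 23 passed the filter. With EGCG, 16 of them were called in WAT on day 4 (7 higher, 9 lower), 21 in WAT on day 8 (11 higher, 10 lower), 16 in BAT on day 4 (7 higher, 9 lower) and 21 in BAT on day 8 (7 higher, 14 lower). In the same order, 53.7%, 63.6%, 48.5% and 72.6% of all tested genes were called. The shares called higher were 34.4%, 44.7%, 27.9% and 46.5%, and those called lower 19.3%, 18.9%, 20.6% and 26.1%. The median log2 changes of the 23 genes were 0.01, 0.07, 0.06 and -0.47, against -1.50, -1.96, -1.49 and -2.92 for the 9 genes. The lowest changes in the list belonged to Gpat3 and Pcx in WAT on both days and in BAT on day 4, and to Pcx and Aqp7 in BAT on day 8. The highest belonged to Plpp2, a lipid phosphate phosphatase (0.94 and 0.59), and Agpat4 in WAT, to Agpat4 and Lclat1, a lysocardiolipin acyltransferase (0.66), in BAT on day 4, and to Agpat4 and Plpp1 (0.97) in BAT on day 8.

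**Figure D4:**
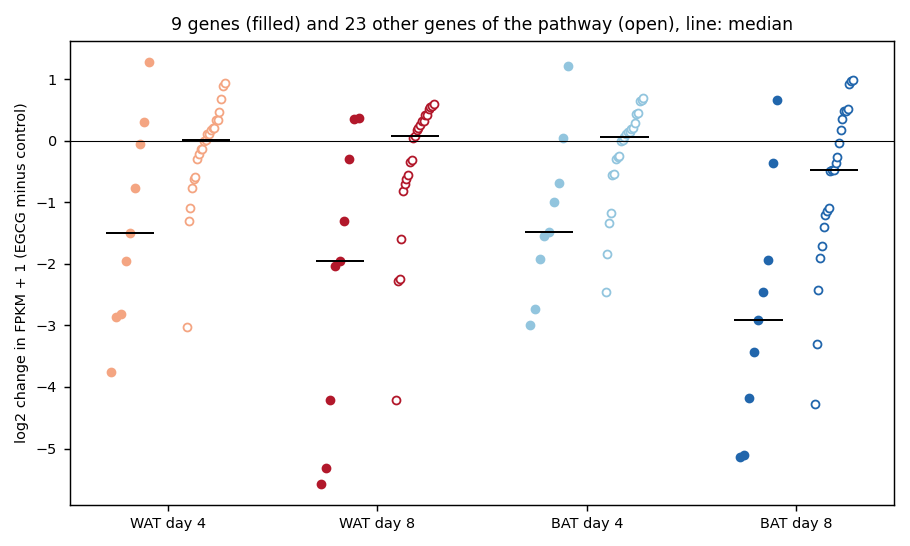
Log2 change in FPKM + 1 (EGCG minus control, vertical axis) in each depot and day, for the 9 genes (filled points) and 23 other genes of the pathway (open points), with a line at the median of each set. The medians of the 9 genes lie at -1.50, -1.96, -1.49 and -2.92 and those of the other genes at 0.01, 0.07, 0.06 and -0.47.

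The course of the 9 genes without EGCG was read from the controls of day 8 against day 4, the libraries that also served the comparisons with EGCG. In WAT, 6 were called (5 higher, 1 lower), where 61.0% of tested genes were called (27.7% higher, 33.2% lower), and in BAT 7 were called (6 higher, 1 lower), where 69.2% were called (28.7% higher, 40.4% lower). Gpd1 rose by 1.28 ± 0.0983 (log2, SE) in WAT and 0.92 ± 0.0983 in BAT, Agpat2 by 1.21 ± 0.112 and 0.71 ± 0.112, and Gpam by 0.48 ± 0.0922 and 1.05 ± 0.0922, each with an adjusted p of at most 0.000778 in limma. Lpin3 rose in both depots (1.31 ± 0.0972 and 1.79 ± 0.0972) and Lpin2 fell in both (-0.47 ± 0.0736 and -0.75 ± 0.0736). Lpin1 rose by 2.10 ± 0.128 in BAT (adjusted p = 4.19e-08) and was at 0.27 ± 0.128 in WAT (adjusted p = 0.0858, limma), where it passed the test without day 8 control replicate 1 (0.51, adjusted p = 0.00141).

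Of the enzymes of the last step in the controls, Dgat1 was at -0.11 ± 0.0666 in WAT (adjusted p = 0.177) and 0.07 ± 0.0666 in BAT (adjusted p = 0.363, limma), and the BAT value was 0.24 (adjusted p = 0.00504) after median-ratio scaling. Dgat2 rose by 0.52 ± 0.0933 in WAT (adjusted p = 0.000500, limma), and replicate 3 gave 0.13. That call was lost in the fit of all 24 libraries as deposited, with a term for the table (0.39, adjusted p = 0.160, limma). In BAT Dgat2 was at -0.14 ± 0.0933 (adjusted p = 0.205, limma), and at -0.26 with day 4 control replicate 1 left out. Pck1 rose by 0.59 ± 0.116 in BAT (adjusted p = 0.000722, limma), but the change in replicate 3 was -0.02 and the call was lost with a pseudocount of 0.1 (0.83, adjusted p = 0.0772). In WAT it was at 0.18 ± 0.116 (adjusted p = 0.192, limma), and at 0.32 without day 8 control replicate 2. Replicate 3 gave -0.28 for Pck1 in WAT. The same shares were compared between the days in controls, with day labels permuted within depot. The Gpam share rose by 23.38 points and the Agpat2 share by 7.90 points, each at p = 0.00500 in the exact permutation test, the smallest it can give (adjusted p = 0.00667), while the Lpin1 share (2.89 points, p = 0.230) and the Dgat2 share (1.68 points, p = 0.435) did not pass the exact permutation test. The Lpin1 share moved in opposite directions, by -3.82 points in WAT and 9.60 points in BAT, and within 1 depot this design cannot reach a p under 0.05. Beside the Gpam share stands the fall of Gpat3 over the same days, -1.05 in WAT and -2.33 in BAT on the log2 scale.

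With EGCG the course was another. From day 4 to day 8, 6 of the 9 genes were called in WAT (2 higher, 4 lower), where 59.5% of tested genes were called (31.8% higher, 27.7% lower). In BAT 7 were called, all lower, where 58.0% were called (29.7% higher, 28.2% lower). Dgat2 fell (-1.98 ± 0.0933 in WAT and -2.28 ± 0.0933 in BAT), as did Dgat1 (-0.56 ± 0.0666 and -0.90 ± 0.0666) and Gpd1 (-0.54 ± 0.0983 and -1.46 ± 0.0983), all with an adjusted p of at most 0.000580 in limma. Agpat2 fell by 1.54 ± 0.112 in BAT (adjusted p = 3.63e-07) and was at -0.13 ± 0.112 in WAT (adjusted p = 0.350, limma). Gpam rose by 0.39 ± 0.0922 in WAT (adjusted p = 0.00310) and fell by 0.32 ± 0.0922 in BAT (adjusted p = 0.0112, limma), and the latter call was lost without day 4 EGCG replicate 2 (-0.25, adjusted p = 0.0881) or day 8 EGCG replicate 2 (-0.29, adjusted p = 0.0611). The fall of Lpin1 in BAT (-0.34 ± 0.128, adjusted p = 0.0409, limma) was lost on leaving out any of its 4 libraries (adjusted p between 0.0907 and 0.143). In WAT, Lpin2 fell by 0.40 ± 0.0736 (adjusted p = 0.000580), Lpin3 rose by 0.39 ± 0.0972 (adjusted p = 0.00477), and Lpin1 and Pck1 did not pass the test. Pck1 fell in BAT by 0.65 ± 0.116 (adjusted p = 0.000455, limma), and Lpin2 and Lpin3 did not pass the test there.

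The depots differed in the controls. Of the 9 genes, 8 were called between BAT and WAT on day 4 (7 higher in BAT, 1 lower), where 55.8% of tested genes were called (41.4% higher, 14.4% lower), and 8 on day 8 (7 higher, 1 lower), where 53.6% were called (31.6% higher, 22.0% lower). Dgat2 was higher in BAT by 1.57 ± 0.0933 on day 4 and 0.91 ± 0.0933 on day 8, Agpat2 by 1.27 ± 0.112 and 0.78 ± 0.112, Gpd1 by 0.97 ± 0.0983 and 0.61 ± 0.0983, and Dgat1 by 0.65 ± 0.0666 and 0.83 ± 0.0666. Lpin1 was higher by 0.68 ± 0.128 on day 4 and 2.51 ± 0.128 on day 8 (adjusted p = 3.67e-08, limma). Pck1 was higher in BAT by 1.27 ± 0.116 and 1.67 ± 0.116 on the FPKM + 1 scale (adjusted p = 5.23e-06 and 3.57e-07, limma), which understates so low a gene, and by 3.29 on day 8 with a pseudocount of 0.1. Gpam was higher by 0.82 ± 0.0922 on day 8 (adjusted p = 1.73e-05), and its day 4 difference (0.25 ± 0.0922, adjusted p = 0.0390, limma) was 0.08 after median-ratio scaling (adjusted p = 0.511) and was lost without WAT replicate 1 or 2 or BAT replicate 2 (0.14 to 0.25). The median of all tested genes was 0.15 higher in BAT on day 4 and 0.01 after that scaling. Lpin3 was lower in BAT on day 4 (-0.30 ± 0.0972, adjusted p = 0.0210, limma), a call lost without WAT replicate 2 (-0.21, adjusted p = 0.158) or either BAT library (adjusted p = 0.0685 and 0.0738), and was at 0.18 ± 0.0972 on day 8 (adjusted p = 0.148). Lpin2 was at 0.09 ± 0.0736 on day 4 (adjusted p = 0.328) and lower in BAT on day 8 by a margin close to the threshold (-0.19 ± 0.0736, adjusted p = 0.0430, limma), which was lost without WAT replicate 1 (-0.09, adjusted p = 0.339) or either BAT library (adjusted p = 0.185 and 0.0639). The adipocyte markers were higher in BAT too, as the sums given above show, and their part in these differences was not tested.

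Whether the effect of EGCG itself differed was tested with interaction terms in limma. A negative value means a deeper fall, or a smaller rise, in BAT than in WAT or on day 8 than on day 4. It can also mean a fall in place of a rise, as for Lpin3 in BAT (1.22 on day 4 and -0.37 on day 8). Between the days, 6 of the 9 genes were called in WAT, all with a negative value, where 49.4% of tested genes were called (29.7% positive, 19.7% negative). In BAT all 9 were called, 1 positive (Lpin2) and 8 negative, where 55.4% were called (34.7% positive, 20.6% negative). The fall was deeper on day 8 for Dgat2 (-2.49 ± 0.132 in WAT and -2.14 ± 0.132 in BAT), Gpd1 (-1.81 ± 0.139 and -2.38 ± 0.139) and Agpat2 (-1.33 ± 0.159 and -2.25 ± 0.159). Lpin1 differed between the days by -2.44 ± 0.181 in BAT (adjusted p = 8.85e-07) and by -0.53 ± 0.181 in WAT (adjusted p = 0.0294, limma), and the WAT call was lost when any of 5 of the 8 libraries was left out, with values from -0.30 (without day 8 control replicate 2) to -0.55. Gpam differed by -1.37 ± 0.130 in BAT (adjusted p = 5.58e-06) and by -0.09 ± 0.130 in WAT (adjusted p = 0.617).

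Between the depots, 4 of the 9 genes were called on day 4, where 28.1% of tested genes were called, and 7 on day 8 (2 positive, 5 negative), where 39.2% were called (19.4% positive, 19.7% negative). On day 4, Gpd1 fell less in BAT than in WAT by 1.03 ± 0.139 (adjusted p = 0.000296) and Agpat2 by 0.95 ± 0.159 (adjusted p = 0.00124, limma), and replicate 3 gave 1.38 and 1.24. The day 4 differences of Gpam (0.39 ± 0.130, adjusted p = 0.0428) and Pck1 (-0.62 ± 0.164, adjusted p = 0.0158) were less secure. That of Gpam was lost when any of 6 of the 8 libraries was left out (0.29 to 0.46). That of Pck1 was lost without WAT control replicate 1 (-0.58), BAT control replicate 1 (-0.52) or BAT EGCG replicate 2 (-0.58), and in a test on recovered reads (-0.39, adjusted p = 0.779). On day 8 the fall was deeper in BAT for Lpin1 (-2.12 ± 0.181, adjusted p = 6.13e-06) and Gpam (-0.89 ± 0.130, adjusted p = 0.000283, limma). Dgat2 and Agpat2 did not pass this test on day 8 (0.17 ± 0.132, adjusted p = 0.328, and 0.03 ± 0.159, adjusted p = 0.901). With a pseudocount of 0.1 the Dgat2 difference passed (0.42, adjusted p = 0.0347, limma). On recovered reads that of Dgat2 was 0.46 and did not pass (adjusted p = 0.144, limma). The day 8 difference of Pck1 (-1.64 ± 0.164 on the FPKM + 1 scale, adjusted p = 1.95e-05) was not called on recovered reads (-0.95, adjusted p = 0.624), where the WAT EGCG libraries held no reads.

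The pattern of each gene over the 16 libraries of replicates 1 and 2 was set against 8697 tested genes with a mean FPKM of at least 5 by Pearson's r of log2(FPKM + 1), as a description: these libraries share 8 groups, so a high r reflects the same group differences. The 2 most alike were Car5b (0.994) and Aldh1a7 (0.992) for Gpd1, Car5b (0.998) and Lgals12 (0.991) for Agpat2, Ppp1r1a (0.992) and Cib2 (0.986) for Gpam, Fitm2 (0.993) and Fgfrl1 (0.992) for Dgat1, and Fabp4 (0.990) and mt-Nd2 (0.989) for Dgat2. For Lpin1 they were Itih4 (0.994) and Sdha (0.991), for Pck1 Ndufab1 (0.975) and Slc25a11 (0.961), for Lpin2 Tspan31 (0.974) and Prmt6 (0.973), and for Lpin3 Mfge8 (0.948) and Mbd2 (0.945). Among the 9 genes, Agpat2 and Gpd1 had an r of 0.99, as did Dgat1 and Dgat2. Lpin2 had a negative r with each of the other 8, from -0.75 with Gpam to -0.40 with Lpin3, and so had Lpin3, from -0.51 with Dgat1 to -0.05 with Lpin1.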

How the data were processed

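The authors deposited FPKM values in 2 separate tables (replicates 1 and 2; replicate 3). The submitters' processing notes name FastQC 0.11.9, HISAT2 2.2.0, HTSeq 0.11 and mm9. Gene names and coordinates came from GENCODE vM1 (NCBIM37), counted from 1. Of 84 gene list entries all were matched, 8 through another symbol.

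FPKM times gene length gave whole reads for 100.00% of values above 0 (tolerance 0.01), so reads were recovered. Values were fitted as log2(FPKM + 1), with 1 mean per group, in limma 3.58.1 (eBayes with a trend, R 4.3.3) over the 16 libraries of replicates 1 and 2, on 14095 genes with an FPKM of at least 1 in at least 2 libraries. Tests were two-sided, with Benjamini-Hochberg adjustment over all tested genes within each of 14 contrasts and a threshold of 0.05. The fitting code was tested on simulated data. Fold changes on this scale understate those of low genes. Shares were compared over 24 libraries by exact permutation. Pck1 reads have 95% intervals for counting error only.

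The 9 genes and all lists were chosen with earlier results of these data known. All 9 are named, with the isozymes of the shares, Gk, Pck2, Pcx, Gpd1l, Gpd2, Aqp7, the 2 highest and 2 lowest called pathway genes per EGCG contrast, and the 2 genes most like each of the 9. The lists of 4 brown depot (Zic1, Ebf2, Lhx8, Ucp1) and 4 white depot markers (Hoxc8, Hoxc9, Hoxc10, Hoxa9) were used as a check of the labels. With EGCG the brown list had 2 lower in WAT on day 4, 1 lower on day 8, and in BAT 3 lower on day 4 and 2 higher and 2 lower on day 8. The white list had 3 lower in WAT on day 4 and 3 higher on day 8, and in BAT 0 called on day 4 and 2 higher on day 8. The shares of all tested genes for the same comparisons are given in Results. Alternatives changed the pseudocount (0.1), filter, scaling, variance trend, libraries and tables, or used limma-voom on the recovered reads.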

Additional observations from a re-analysis of the deposited data

Results flagged for a closer look

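The effect of EGCG differed between depots or between days by an interaction term in limma (adjusted p under 0.05) for the following values, given as differences of log2 changes. The changes with EGCG that are subtracted stand in the report. Between depots (BAT minus WAT) on day 4 the values were 0.39 for Gpam, 0.95 for Agpat2, 1.03 for Gpd1 and -0.62 for Pck1. On day 8 they were -0.89 for Gpam, -2.12 for Lpin1, 0.29 for Lpin2, -0.72 for Lpin3, -0.50 for Dgat1, 0.46 for Gpd1 and -1.64 for Pck1. Of Gpam, Gpd1 and Pck1, which were called on both days, Gpam had opposite signs on the 2 days.

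Between days (day 8 minus day 4) in WAT the values were -1.33 for Agpat2, -0.53 for Lpin1, -0.93 for Lpin3, -0.45 for Dgat1, -2.49 for Dgat2 and -1.81 for Gpd1. In BAT they were -1.37 for Gpam, -2.25 for Agpat2, -2.44 for Lpin1, 0.61 for Lpin2, -1.58 for Lpin3, -0.97 for Dgat1, -2.14 for Dgat2, -2.38 for Gpd1 and -1.24 for Pck1.

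The Lpin2 difference between depots on day 8 was lost on leaving out any of 7 of its 8 libraries (0.19 to 0.33), and that of Gpd1 on day 8 without WAT control replicate 2 (0.37), WAT EGCG replicate 1 (0.38), BAT control replicate 1 (0.43) or BAT EGCG replicate 2 (0.44).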

How the results depend on the processing

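The EGCG changes of Gpam, Agpat2, Lpin1, Dgat1, Dgat2 and Gpd1 kept their direction and call in all 384 values recomputed under the alternatives. Those of Lpin2, Lpin3 and Pck1 did so in 169 of 188, with 18 no longer called and 1 reversed. With both tables and a term for the table, Lpin3 with EGCG in WAT on day 8 was -0.16 in place of 0.35, and Lpin3 from day 4 to day 8 in WAT with EGCG was -0.03 in place of 0.39. In that fit 2 genes were called for the difference between depots on day 4 (4 in the report) and 2 on day 8 (7 in the report). The fit holds WAT day 8 EGCG replicate 3 as deposited. With that library rescaled, an alternative chosen after seeing the data, Lpin3 in WAT on day 8 was 0.21 (adjusted p = 0.0377, limma). Leaving out 1 library gave 2 to 4 genes for the day 4 difference between depots, with 2 without WAT control replicate 1, BAT control replicate 1 or BAT EGCG replicate 2. The rise of shares in controls was no longer called without replicate 1, 2 or 3 (Gpam 23.01 to 23.89 points, Agpat2 6.92 to 9.13), in WAT alone (20.03 and 12.34) or in BAT alone (26.73 and 3.46), where the smallest exact permutation p is at least 0.0556. Pairing by replicate number was checked in replicates 1 and 2 over 28 pairs of groups (r -0.08 to 0.08), and the main tests used no pairing. The check leaves out replicate 3 and cannot exclude that libraries of the same number are related. With the replicate block, Lpin2 lost its call for BAT against WAT on day 8 (-0.19, adjusted p = 0.0529, limma) and for the depot difference on day 8 (0.29, adjusted p = 0.0552), which left 7 and 6 genes called, and no other call of the 9 genes changed. Depth limits Pck1 in WAT.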
